A study of Homo sapiens with 6 samples.

Results

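The genes described here encode the ESCRT machinery and the export route of multivesicular bodies. There are 33 of them among the 62709 genes of the deposited table, found by gene name from a list of the machinery's known members. They were followed in HepG2.2.15 cells, hepatoma cells of human origin with integrated hepatitis B virus genomes that release virus particles. The cells, labelled as genotype WT, were grown in medium with 10% serum and G418, the agent that selects for the transfected construct. For 3 days they received either saline or YQSHJD, a freeze-dried powder dilution of the herbal Yinqi Sanhuang Jiedu Decoction that made up 10% of the medium. The sample labels name the control agent as physiological saline and the treatment protocol names PBS, and it is called saline below. Each group had 3 libraries of polyadenylated RNA, all from this 1 line. The labels do not say whether the libraries came from separate cultures, so p-values measure only the spread between these libraries.

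ESCRT complexes sort ubiquitin-tagged membrane proteins into vesicles that bud into the lumen of late endosomes, which are then called multivesicular bodies. ESCRT-0 gathers the cargo, ESCRT-I and ESCRT-II shape the bud, ESCRT-III filaments close its neck, and the VPS4 ATPase takes the filaments apart. The same machinery closes the necks of budding enveloped viruses. In hepatitis B virus producing cells, virions are known to leave through multivesicular bodies with the help of ESCRT-III and VPS4, whereas empty surface antigen particles mostly leave by the secretory pathway. When a multivesicular body fuses with the plasma membrane instead of a lysosome, its vesicles are set free as exosomes.

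The 250 bases before the RefSeq start of 4 genes are shown. PDCD6IP (ALIX) had the largest rise, and STAM had the largest log2 difference among the ESCRT subunits proper in the test described below. By ratio of means its paralog STAM2 rose more, 1.62-fold against 1.52-fold. The VPS4 paralogs VPS4A and VPS4B moved in opposite directions. The sequences are from RefSeq on GRCh38.p14, read 5′ to 3′ on the gene's own strand. Capitals mark matches to CACGTG, the E-box read by MITF and TFE factors, or to GCGTG, the core that the AHR receptor reads, which appears as CACGC where it lies on the other strand. They lie at chr3:33798380-33798629 on the plus strand for PDCD6IP, chr10:17643901-17644150 on the plus strand for STAM, chr18:63422477-63422726 on the minus strand for VPS4B and chr16:69311100-69311349 on the plus strand for VPS4A. The deposited table places 2 of the starts further upstream, so 59 bases of the PDCD6IP window and 7 of the VPS4B window lie inside the gene as deposited.
PDCD6IP: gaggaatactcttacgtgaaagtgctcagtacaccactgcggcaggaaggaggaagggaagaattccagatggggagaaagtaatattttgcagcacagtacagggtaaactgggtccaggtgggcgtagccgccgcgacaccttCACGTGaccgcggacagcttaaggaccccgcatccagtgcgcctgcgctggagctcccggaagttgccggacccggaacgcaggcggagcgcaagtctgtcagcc
STAM: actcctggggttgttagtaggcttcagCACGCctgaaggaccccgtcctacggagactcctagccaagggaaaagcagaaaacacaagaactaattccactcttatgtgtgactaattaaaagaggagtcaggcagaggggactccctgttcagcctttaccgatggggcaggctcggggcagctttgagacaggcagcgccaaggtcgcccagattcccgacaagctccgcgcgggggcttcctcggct
VPS4B: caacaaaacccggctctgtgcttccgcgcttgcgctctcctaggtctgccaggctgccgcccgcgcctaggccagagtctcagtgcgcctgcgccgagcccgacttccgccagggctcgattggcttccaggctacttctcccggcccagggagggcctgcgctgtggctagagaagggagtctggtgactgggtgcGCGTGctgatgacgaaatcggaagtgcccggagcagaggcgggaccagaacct
VPS4A: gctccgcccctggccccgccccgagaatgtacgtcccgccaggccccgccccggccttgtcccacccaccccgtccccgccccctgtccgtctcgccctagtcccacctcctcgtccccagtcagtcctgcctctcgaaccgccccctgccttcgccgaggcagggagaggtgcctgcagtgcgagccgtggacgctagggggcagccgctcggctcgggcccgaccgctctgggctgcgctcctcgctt

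These windows differed in base composition. G and C made up 59.2% of the PDCD6IP window and 56.8% of that of STAM, against 66.4% for VPS4B and 74.8% for VPS4A, with a median of 58.0% over all promoters of the table. Motifs were searched on both strands. A gene counted where any of its listed starts had a match, so genes with several starts, 6 of the 26 here, had more room for one. The GC median of the 26 genes below uses the first listed start of each. The core GCGTG was present before the start of 14 of the 26 genes with an entry (53.8%) and of 36.2% of all genes. CACGTG was present for 5 of 26 (19.2%), PDCD6IP, VPS36, CD63, CHMP4A and VPS37B, and for 7.73% of all genes. These held 2 of the 8 searched genes called higher in the test described below and 0 of the 3 called lower. TGACNNNGC, the antioxidant response element read by NRF2, was present for 2 of 26 (7.69%), CHMP5 and VTA1, and for 13.2% of all genes. Matches of different motifs may overlap and were counted under each motif. The windows held G and C at a median of 64.6% for the 26 genes, and a match is a stretch of letters, not a binding site. CHMP3, CHMP4C, CHMP6, CHMP7, VPS28, VPS37A and VPS37C had no entry.

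The unit is FPKM, fragments per kilobase of gene, scaled by the authors to a depth that was not the read total of the library. That depth was 1.027 to 1.049 times the total recovered from FPKM and length in saline and 0.885 to 0.923 times in YQSHJD. It ran with the groups, so YQSHJD values stand higher against saline than reads per total would place them. A gene entered the test where 3 or more of the 6 libraries gave it 1 FPKM, and a gene was called if its Benjamini-Hochberg adjusted p from limma on log2(FPKM + 1), over all 10966 genes tested, was under 0.05. On this scale 32 of the 33 genes were tested, and 9 rose with YQSHJD, 3 fell and 20 passed the test in neither direction. The 9 that rose were 28.1% of the genes tested, against 23.3% of all genes. The 3 that fell were 9.38%, against 18.0% of all genes. In either direction 41.4% of all genes were called. In bulk RNA, fewer cells of a type and less RNA per cell cannot be told apart. The median log2 difference was 0.07 for the 32 genes and 0.04 for all genes. The members called higher were PDCD6IP, STAM, STAM2, UBAP1, VPS37A, VPS36, CHMP5, VPS4B and VTA1, and those called lower were MVB12A, MVB12B and VPS4A. By complex, 2 of 3 tested ESCRT-0 genes rose, ESCRT-I had 2 higher and 2 lower of 9, ESCRT-II 1 higher of 3, ESCRT-III 1 higher of 11 and the VPS4 complex 2 higher and 1 lower of 3, while neither export gene was called.

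The scaling of the libraries and the base composition of the genes moved with these results. Recovered reads numbered 13370372 to 15615649 per library. Mitochondrial genes took 13.5% to 15.7% of reads in the saline libraries and 17.6% to 22.4% in the YQSHJD libraries. When each library was rescaled to the same sum (TPM), the median difference of all genes moved from 0.04 to -0.26, and the genes described here then had 1 called higher, PDCD6IP, and 9 called lower, with a median of -0.25. Of all genes 8.07% were called higher and 39.9% lower under that rescaling. Other scalings moved the counts less. Scaling by the median ratio to the genes' geometric means gave 8 higher and 3 lower, against 21.4% and 19.7% of all genes. Quantile normalization, which gives all libraries the same distribution, gave 7 higher and 3 lower, against 20.8% and 20.6%. YQSHJD 1 was least like its group, with a mean correlation of 0.976 to the other YQSHJD libraries, against 0.981 and 0.984 for those. It was the highest YQSHJD library for 9 of the 9 genes that rose and the lowest for 2 of the 3 that fell. That order was not counted over all called genes, so these counts have no background. Of the hepatocyte and hepatoma markers 8 of 8 were at 1 FPKM or more in every library, with summed levels of 2858 to 3123 FPKM in saline and 4304 to 5209 in YQSHJD. These markers did not move together: ALB read 831 to 1011 FPKM in saline and 1799 to 2605 in YQSHJD, whereas TTR read 20.3 to 21.5 and 12.2 to 18.5, and SERPINA1 609 to 713 and 556 to 658. Of 5 fibroblast and 5 immune markers none reached that level in every library, and DCN, PTPRC and MS4A1 were listed at 0 in all. Of 4 endothelial markers only VWF did, and their sum was 4.88 to 5.41 FPKM in saline and 5.28 to 6.21 in YQSHJD.

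**Figure D1:**
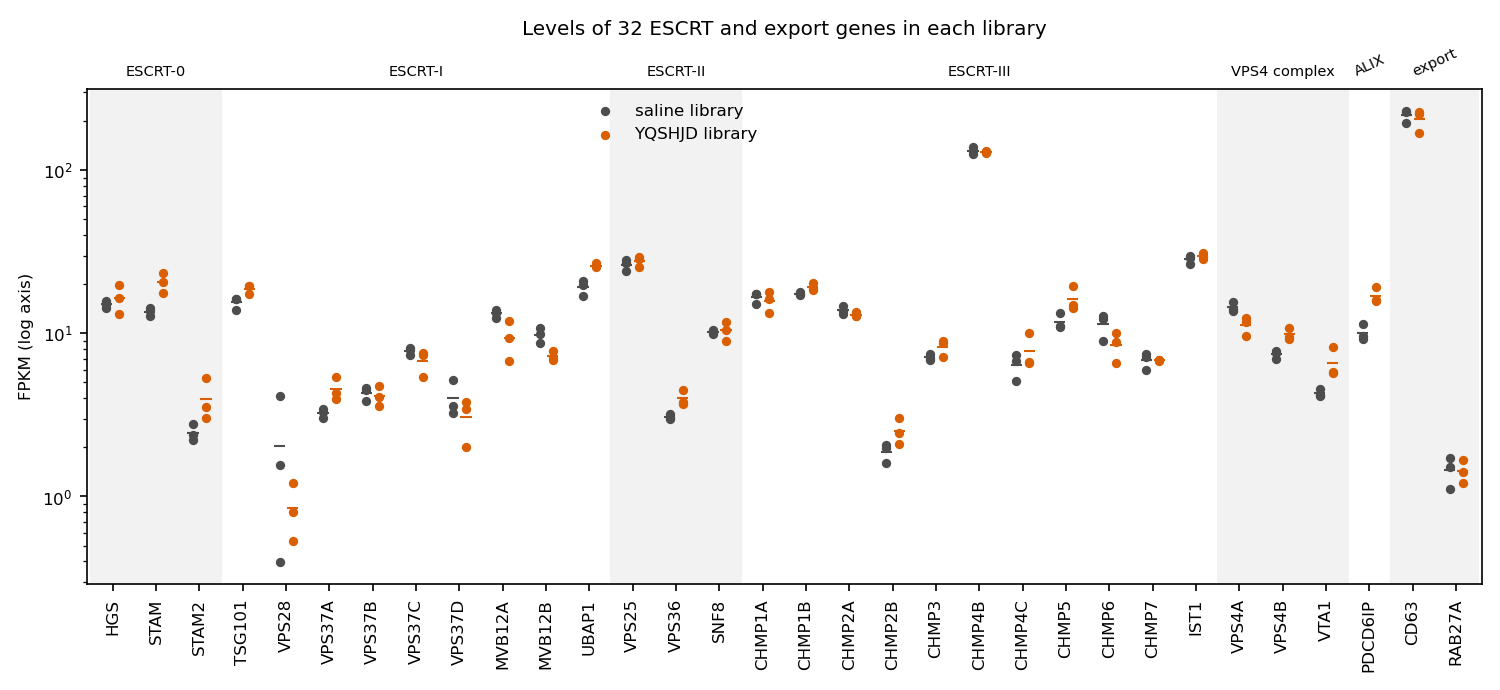
FPKM of the 32 genes tested in the 3 saline and the 3 YQSHJD libraries on a log axis, grouped by complex, with 1 point per library and a line at each group mean. CD63 and CHMP4B stand above 100 FPKM in every library.

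The genes spanned a wide range of levels in the saline libraries. Mean FPKM was above 100 for 2 genes, CD63 and CHMP4B, between 10 and 100 for 15, between 1 and 10 for 15 and under 1 for CHMP4A. FPKM divides by gene length, and the deposited length was 0.973 to 3.65 times that of the longest GENCODE 29 transcript, so levels of different genes compare only roughly.

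ESCRT-0 is the cargo-gathering complex of HGS and the STAM proteins, which bind ubiquitin and clathrin. STAM (ENSG00000136738, chr10:17644151-17716824) read 12.8, 14.2 and 13.6 FPKM in saline libraries 1 to 3 and 23.4, 20.7 and 17.8 in YQSHJD libraries 1 to 3. All YQSHJD libraries lay above all saline ones. Mean FPKM went from 13.5 ± 0.713 to 20.6 ± 2.84 (SD, n = 3 each), a 1.52-fold rise with a log2 difference of 0.57 (SE 0.11, limma adjusted p = 0.00495). The call held under 18 of 19 alternative settings and was lost under TPM rescaling, where the difference was 0.22. Its paralog STAM2 read 2.37, 2.22 and 2.77 FPKM in saline and 5.32, 3.54 and 3.04 in YQSHJD. Its groups did not overlap either, with YQSHJD 1 far above the other YQSHJD libraries. STAM2 rose 1.62-fold (log2 difference 0.50, limma adjusted p = 0.0389), and the call held under 8 of 18 alternatives. Without YQSHJD 1 the difference was 0.31 (adjusted p = 0.0427), and with the correction for GC content described below it was 0.24 and not called (adjusted p = 0.101). STAM made up 84.7% of the summed STAM and STAM2 level in saline and 84.1% in YQSHJD, an overlapping share. HGS, the scaffold that recruits ESCRT-I, read 15.9, 14.3 and 15.02 FPKM in saline and 13.2, 16.5 and 19.8 in YQSHJD. These groups overlapped, and the difference of 0.11 was not called (adjusted p = 0.560). HGS was called higher only in 3 settings with a correction for GC content, described below, at 0.41 (adjusted p = 0.000992) with that correction alone.

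ESCRT-I is a rod of TSG101, VPS28, a VPS37 and an MVB12 or UBAP1 subunit. Its core TSG101, which binds the late-domain motifs of many viruses, read 13.98, 16.4 and 16.3 FPKM in saline and 19.5, 19.5 and 17.5 in YQSHJD. The groups did not overlap, but the log2 difference of 0.26 (95% interval 0.04 to 0.48) was not called (limma adjusted p = 0.0614). VPS28, the arm that reaches ESCRT-II, rested on 23 to 254 reads and read 1.57, 0.397 and 4.11 FPKM in saline and 0.535, 0.801 and 1.202 in YQSHJD. Its saline libraries spanned a wider range than the gap between groups, and its difference of -0.53 was not called (adjusted p = 0.392). Without saline 2 it was -0.99 and called (adjusted p = 0.0435), and without saline 3 it was -0.05 (adjusted p = 0.897). Whether so few VPS28 reads reflect its level in the cells or the counting of reads was not tested.

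UBAP1, a subunit of the ESCRT-I form that works at endosomes, rose. It read 19.9, 21.0 and 17.0 FPKM in saline and 26.9, 25.7 and 25.6 in YQSHJD. The YQSHJD libraries lay close together and above every saline library. The mean went from 19.3 ± 2.07 to 26.1 ± 0.740 FPKM, 1.35-fold, with a log2 difference of 0.42 (95% interval 0.19 to 0.64, limma adjusted p = 0.0108). The call was lost under TPM rescaling (0.07) and under scaling to an equal sum of nuclear FPKM (0.23), and held under 17 of 19 alternatives. With the GC correction it was 0.39 (adjusted p = 0.00489).

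The MVB12 subunits, which bind ubiquitin and occupy the same place in the complex as UBAP1, both fell. MVB12A read 13.4, 12.5 and 13.9 FPKM in saline and 6.81, 9.36 and 11.9 in YQSHJD. All YQSHJD libraries lay below all saline ones, YQSHJD 3 only narrowly. MVB12A was 1.42-fold lower (log2 difference -0.49, limma adjusted p = 0.0455), and the call held under 12 of 19 alternatives. Without YQSHJD 1 the difference was -0.30 (adjusted p = 0.0483). The gene overlaps the same-strand noncoding gene BISPR, whose difference of 0.12 was not called, and shares 27.1% of its exonic bases in GENCODE 29 with other genes. MVB12B read 10.8, 9.94 and 8.75 FPKM in saline and 7.02, 6.87 and 7.80 in YQSHJD. Its groups did not overlap and it was 1.36-fold lower (log2 difference -0.39, adjusted p = 0.0168). The call held under 13 of 19 alternatives, and the GC-corrected difference of -0.19 was not called (adjusted p = 0.127).

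The 4 VPS37 proteins are alternative subunits of ESCRT-I. VPS37A read 3.02, 3.46 and 3.29 FPKM in saline and 5.41, 4.29 and 3.97 in YQSHJD. All YQSHJD libraries were higher, and VPS37A rose 1.40-fold (log2 difference 0.38, limma adjusted p = 0.0312), a call that held under 7 of 18 alternatives. VPS37B, VPS37C and VPS37D had differences of -0.06, -0.19 and -0.30, none called. VPS37A took 16.8% ± 1.58 of the summed VPS37 level in saline and 24.9% ± 6.32 in YQSHJD (SD, n = 3 each). The shares did not overlap between groups, with an exact permutation p of 0.10, the smallest that 3 against 3 libraries allow. The p adjusted over the 12 paralog shares tested was 0.40, and without YQSHJD 1 the gain was 4.53 points instead of 8.09. GC content was 39.2% for VPS37A and 59.3% to 68.6% for its paralogs. With the GC correction described below, the log2 difference of VPS37A was 0.13. Those of VPS37B, VPS37C and VPS37D were then 0.14, 0.03 and 0.11, and none of the 4 was called. The share itself was not tested with that correction.

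ESCRT-II bridges ESCRT-I to the filament-forming subunits. VPS36, which carries its ubiquitin-binding domain, read 3.20, 2.98 and 3.07 FPKM in saline and 4.49, 3.68 and 3.803 in YQSHJD. Every YQSHJD library was higher, and VPS36 rose 1.29-fold (log2 difference 0.29, limma adjusted p = 0.0469). That call held under 3 of 18 alternatives, and without YQSHJD 1 the adjusted p was 0.0836. VPS25 and SNF8, the other subunits, differed by 0.08 and 0.02 with adjusted p of 0.551 and 0.911.

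ESCRT-III holds the CHMP proteins and IST1. The filament former CHMP4B was the most abundant of them, at 130.6, 125.3 and 138.8 FPKM in saline and 127.6, 130.7 and 130.0 in YQSHJD. The groups overlapped and the difference was -0.02 with a 95% interval of -0.20 to 0.15 (limma adjusted p = 0.835). CHMP4B made up 95.3% of the CHMP4 level in saline and 94.3% in YQSHJD, and CHMP4C differed by 0.23 (adjusted p = 0.314). CHMP4A had 0 to 3 reads in every library and was not tested, with 68.8% of its exonic bases shared with other genes in GENCODE 29. CHMP5, which binds the VPS4 cofactor VTA1, was the single ESCRT-III gene called. It read 11.2, 10.96 and 13.3 FPKM in saline and 19.4, 14.3 and 14.9 in YQSHJD. All YQSHJD libraries were higher, 1.37-fold in the mean (log2 difference 0.42, adjusted p = 0.0330), and the call held under 10 of 19 alternatives.

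The other ESCRT-III genes gave no call. CHMP2B, a capping subunit with CHMP3 and CHMP2A, had the largest positive difference of these at 0.28 (95% interval -0.005 to 0.57, limma adjusted p = 0.103). CHMP6, which starts the filament from ESCRT-II, had the largest negative one at -0.38 (adjusted p = 0.101) with 12.2, 8.99 and 12.8 FPKM in saline and 6.59, 8.91 and 9.98 in YQSHJD. Its groups overlapped at the edge, saline 2 lying within the YQSHJD range. CHMP1A, CHMP1B, CHMP2A, CHMP3, CHMP7 and IST1 lay between -0.07 and 0.18. CHMP2A made up 88.0% ± 0.881 of the CHMP2 level in saline and 83.9% ± 2.84 in YQSHJD, with no overlap (exact permutation p = 0.10, the smallest possible, and 0.40 adjusted over the 12 shares). Without YQSHJD 1 the difference was -2.71 points instead of -4.18. GC content was 55.3% for CHMP2A and 35.4% for CHMP2B. With the GC correction described below their log2 differences were 0.04 and 0.02, against -0.07 and 0.28 as deposited.

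The VPS4 complex, the ATPase that dismantles ESCRT-III filaments, moved in both directions. VPS4A read 15.5, 13.7 and 14.2 FPKM in saline and 9.67, 11.7 and 12.5 in YQSHJD. Every YQSHJD library was lower, and the mean went from 14.5 ± 0.935 to 11.3 ± 1.45 FPKM, 1.28-fold lower, with a log2 difference of -0.34 (95% interval -0.59 to -0.08, limma adjusted p = 0.0396). The call held under 11 of 19 alternatives, and without YQSHJD 1 the difference was -0.24 (adjusted p = 0.0536). VPS4A lies over COG8 and PDF on the opposite strand and shares 36.4% of its exonic bases with other genes, and whether counting used strand was not stated. PDF also fell (-0.54, adjusted p = 0.0435) and COG8 was not called (-0.29, adjusted p = 0.105).

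VPS4B read 7.82, 6.99 and 7.57 FPKM in saline and 10.9, 9.21 and 9.48 in YQSHJD. Every YQSHJD library was higher, 1.32-fold in the mean (log2 difference 0.36, limma adjusted p = 0.0193), and the call held under 10 of 19 alternatives. With the GC correction VPS4B was at 0.11 and not called (adjusted p = 0.271). VTA1, the cofactor that stabilises the VPS4 ring, read 4.21, 4.15 and 4.53 FPKM in saline and 8.20, 5.73 and 5.80 in YQSHJD. YQSHJD 1 was far above the rest, and VTA1 rose 1.53-fold (log2 difference 0.50, adjusted p = 0.0170), a call that held under 12 of 19 alternatives.

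VPS4A and VPS4B are paralogous subunits of the same ATPase, so their shares were compared. VPS4A made up 66.5%, 66.2% and 65.2% of the summed VPS4 level in saline libraries 1 to 3 and 47.1%, 56.0% and 56.8% in YQSHJD libraries 1 to 3. The groups did not overlap, and the mean share fell by 12.6 points, from 66.0% ± 0.661 to 53.3% ± 5.38 (SD, n = 3 each). The exact two-sided permutation p was 0.10, the smallest that 3 against 3 allow, and 0.40 after Benjamini-Hochberg adjustment over the 12 paralog shares tested. Leaving out each library in turn gave -14.4 to -9.55 points. Scaling of a whole library leaves the share as it is, but GC content differs between the paralogs, at 54.0% for VPS4A and 39.2% for VPS4B. The VPS4A minus VPS4B gap in log2 difference was -0.69 as deposited and -0.36 with the GC correction.

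**Figure D2:**
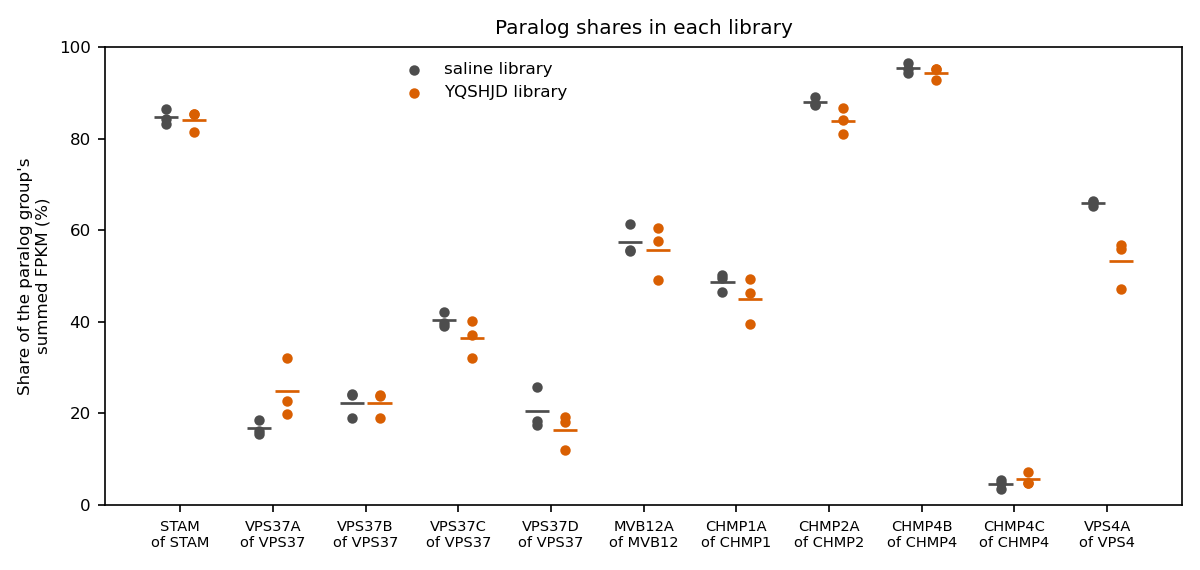
Share of each paralog in the summed FPKM of its group, in percent per library, with a line at each mean, for the STAM, VPS37, MVB12, CHMP1, CHMP2, CHMP4 and VPS4 groups. In groups of 2 the other paralog makes up the rest. The VPS4A share is 65.2% to 66.5% in saline and 47.1% to 56.8% in YQSHJD.

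PDCD6IP, which encodes ALIX, a bridge between viral or cellular cargo and ESCRT-III that also works with syntenin in exosome formation, had the largest rise. It (ENSG00000170248, chr3:33798571-33869707) read 9.21, 9.69 and 11.4 FPKM in saline and 19.3, 15.7 and 16.1 in YQSHJD. The lowest YQSHJD library was above the highest saline library. Mean FPKM went from 10.1 ± 1.16 to 17.1 ± 1.99 (SD, n = 3 each), a 1.69-fold rise with a log2 difference of 0.70 (SE 0.12, 95% interval 0.44 to 0.97, limma adjusted p = 0.00204). It was the single gene of the 32 called in all 19 alternatives, at 0.37 (adjusted p = 0.0356) under TPM rescaling and 0.46 (adjusted p = 0.00132) with the GC correction. The promoter window printed above holds 1 CACGTG.

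The export genes were not called. CD63, a tetraspanin of multivesicular bodies and exosomes, was the most abundant gene of the set, at 230.3, 193.9 and 228.3 FPKM in saline and 169.8, 226.8 and 221.2 in YQSHJD. The groups overlapped and the difference was -0.09 (95% interval -0.38 to 0.20, limma adjusted p = 0.614). RAB27A, which docks multivesicular bodies at the plasma membrane, read 1.12, 1.51 and 1.72 FPKM in saline and 1.67, 1.21 and 1.41 in YQSHJD. These overlapped too, with a difference of -0.01 (adjusted p = 0.961).

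**Figure D3:**
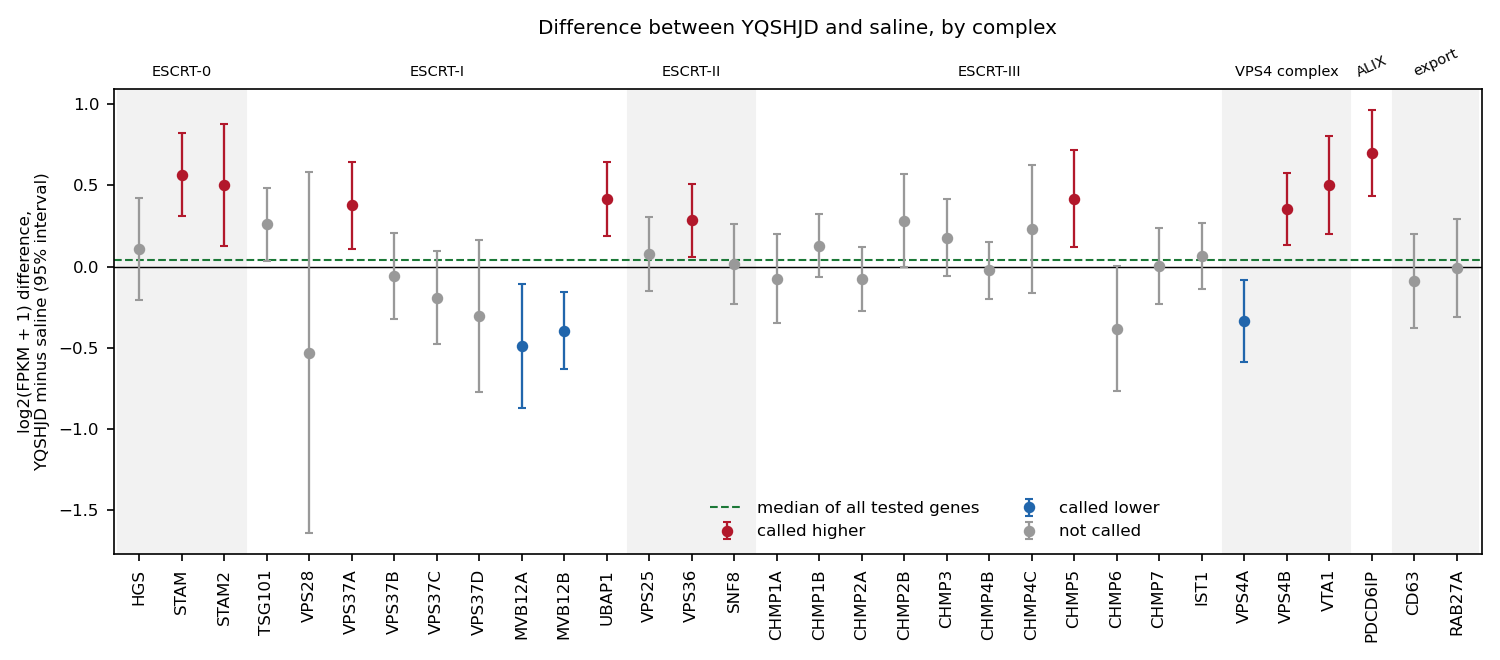
Log2 difference, YQSHJD minus saline on log2(FPKM + 1), of the 32 genes tested, with 95% intervals from limma. PDCD6IP stands highest at 0.70, and of the 20 genes not called only TSG101 has an interval that excludes 0.

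The groups of 15 tested genes did not overlap at all between conditions. In 12 of them every YQSHJD library was above every saline library, against 30.7% of all genes, and in 3 every one was below, against 24.6%. TSG101, CHMP1B and CHMP2B had such a gap without passing the test.

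The genes that rose were lower in GC content than those that fell. GC content of the longest GENCODE 29 transcript was 36.6% to 50.2% for the 9 that rose and 54.0% to 59.4% for the 3 that fell, with medians of 39.7% and 59.2%. Across the 32 genes, Spearman's rho between GC content and log2 difference was -0.80, and across all 10843 tested genes with a GC value it was -0.45. These are descriptions across genes that share the same libraries. By library, GC content went with the deviation from the mean at rho of 0.52, 0.34 and 0.33 in saline and -0.66, -0.27 and 0.04 in YQSHJD over all tested genes, YQSHJD 1 standing farthest. After a loess correction for GC content 6 of the genes were called higher and 2 lower, against 22.5% and 21.6% of all genes, and rho within the set was -0.16. PDCD6IP, STAM, UBAP1 and VTA1 kept a positive call and MVB12A and VPS4A kept a negative one, with VTA1 at 0.25 and VPS4A at -0.25. HGS and CHMP1A gained a positive call. STAM2, VPS37A, VPS36, CHMP5 and VPS4B lost their call, with differences of 0.24, 0.13, 0.04, 0.18 and 0.11, and so did MVB12B at -0.19. The part of base composition in the differences was not tested beyond these values.

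**Figure D4:**
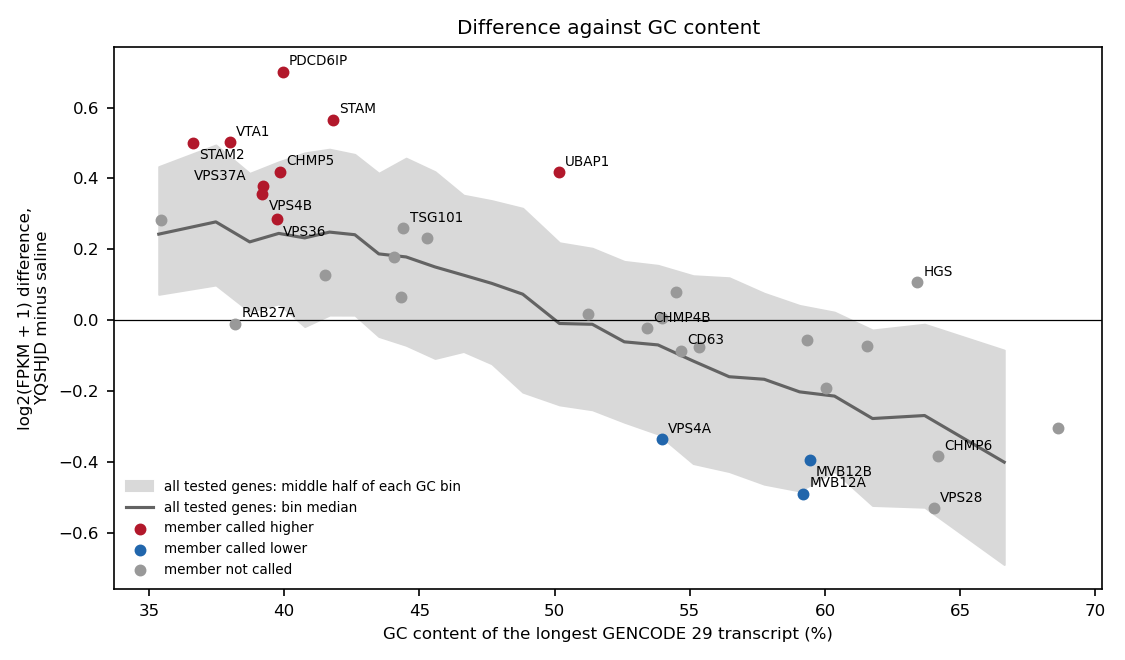
GC content of the longest transcript against the log2 difference for the 32 genes tested, with the median and quartiles of all tested genes in GC bins. The genes that rose have a GC content of 36.6% to 50.2% and those that fell of 54.0% to 59.4%.

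The counts moved with single libraries. Without saline 1, 2 or 3 in turn, 4, 3 and 5 genes were called higher, against 14.5%, 15.7% and 18.6% of all genes, and 0, 2 and 1 lower, against 11.1%, 12.6% and 13.7%. PDCD6IP, STAM and UBAP1 were called in each of these, and the 2 lower genes without saline 2 were CHMP6 and VPS28, not among the 3 that fell with all libraries. At an unadjusted limma p under 0.05 and without saline 1, 9 genes were higher and 2 lower. Without YQSHJD 2, 6 were called higher and 0 lower, against 17.6% and 14.1% of all genes called. At an unadjusted limma p under 0.05 it was 9 and 3 of the set. The share of all genes at an unadjusted p was not computed in any setting, so such counts have no background. Without YQSHJD 3 it was 10 and 4, against 23.9% and 20.0%, and without YQSHJD 1 it was 8 and 2, against 24.4% and 18.4%. Some settings raised or cut the share of all genes called. Without the filter it was 6.04% higher and 5.08% lower, where 3 and 0 genes of the set were called, with 10 and 3 at an unadjusted limma p under 0.05. With summed nuclear FPKM equal it was 12.8% and 29.6%, with 2 and 7 of the set. With the replicate number as a block it was 18.4% and 15.4%, with that block and the GC correction 20.3% and 19.6%, and with the GC correction without YQSHJD 1 21.7% and 21.1%.

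**Figure D5:**
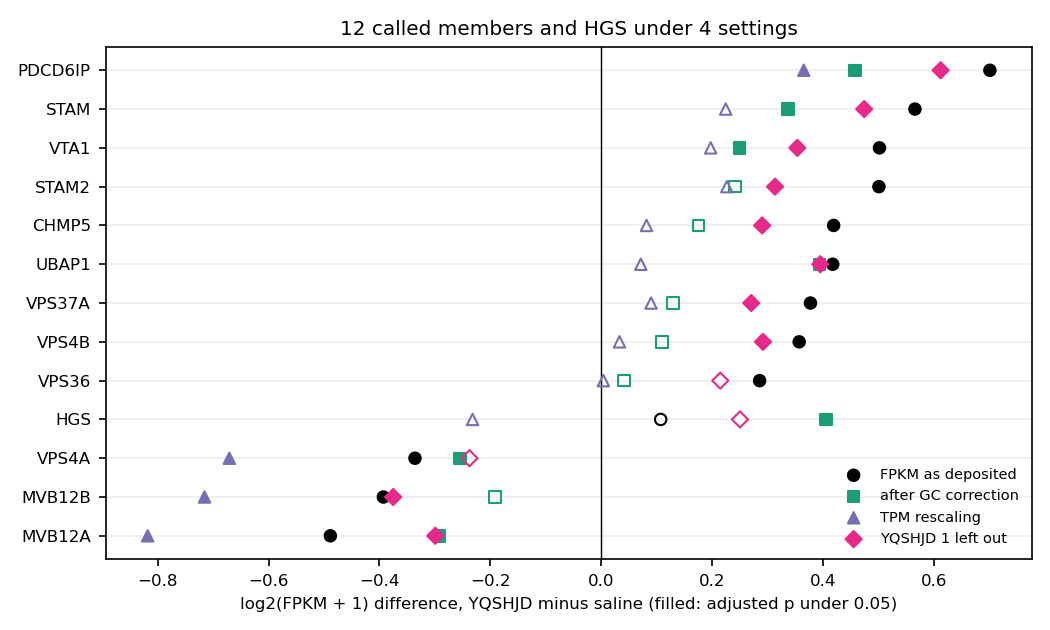
Log2 difference of the 12 called genes and HGS under 4 settings, the deposited FPKM, the GC correction, TPM rescaling and YQSHJD 1 left out, with filled points for called values. PDCD6IP is called in all 4, and the other 8 genes that rose lose their call under TPM rescaling.

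Other genes of the pathway were counted on the same fit. ESCRT partners and ubiquitin machinery had 26 of 29 genes tested, with 8 higher and 3 lower (30.8% and 11.5%, against 23.3% and 18.0% of all genes). Their median difference was 0.25, against 0.04 for all genes. It was 0.12 with the GC correction, 0.09 with summed nuclear FPKM equal and -0.06 under TPM rescaling. Exosome release and tetraspanin genes had 20 of 27 tested, with 5 higher and 5 lower, the higher share near the 23.3% of all genes and the lower one beside 18.0%. Their median was -0.02, and -0.10, -0.17 and -0.32 in those settings. Endosome maturation and tethering genes had 24 of 26 tested, with 9 higher (37.5%) and 0 lower. At an unadjusted limma p under 0.05 they had 11 higher and 0 lower, a count without a share of all genes beside it. Their median was 0.27, and 0.19, 0.11 and -0.04 in those settings. All genes had medians of -0.26 under TPM rescaling and -0.12 with summed nuclear FPKM equal. Under TPM rescaling the 3 lists had 2 higher and 6 lower, 1 and 9, and 1 and 4, where 8.07% of all genes were higher and 39.9% lower.

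Among the partners NEDD4L, a ubiquitin ligase of the NEDD4 family, rose 3.26-fold. It read 1.83, 1.71 and 1.66 FPKM in saline and 6.02, 5.63 and 5.30 in YQSHJD. Its log2 difference was 1.28 (SE 0.09, limma adjusted p = 3.5e-05) and was called in all 19 alternatives, at 1.01 under TPM rescaling. ARRDC3, an arrestin-like adaptor of such ligases, rose 3.05-fold (1.00, adjusted p = 0.00149), and UMAD1, a gene named for its UBAP1-MVB12-associated domain, 1.82-fold (0.72, adjusted p = 0.0117; not called under TPM rescaling). AP1G2, a clathrin adaptor subunit known to take part in hepatitis B virus assembly, fell from 6.42, 6.81 and 6.01 FPKM to 3.07, 3.65 and 4.31 (log2 difference -0.67, adjusted p = 0.00259). CEP55, the midbody scaffold that recruits ALIX, fell (-0.32), as did the ligase WWP2 (-0.29). The CEP55 call held under 12 of 18 alternatives and that of WWP2 under 10 of 19, and with the GC correction CEP55 was at -0.56 and WWP2 at -0.13, the latter not called (adjusted p = 0.167).

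Among the exosome genes SDCBP, which encodes the ALIX partner syntenin, read 7.59, 8.06 and 8.01 FPKM in saline and 16.6, 12.1 and 13.3 in YQSHJD. All YQSHJD libraries were higher, and it rose 1.78-fold (log2 difference 0.74, limma adjusted p = 0.00176), called in all 19 alternatives. RALB, a small GTPase of exocytosis, rose by 0.64, and VAMP7, a SNARE of late endosomes, by 0.61. UNC13D, a tethering factor for secretory lysosomes, fell (-0.69, adjusted p = 0.00513), as did RAB11B, a recycling endosome GTPase (-0.45), and the membrane scaffold FLOT2 (-0.43). RAB11B held its call under 11 of 19 alternatives and lost it with the GC correction (-0.15, adjusted p = 0.0724), and FLOT2 and UNC13D were called in all 19. RALB and VAMP7 lost theirs under TPM rescaling. Among the endosome genes the tethering subunits VPS8 and VPS41 rose by 0.76 and 0.64 and RAB5A, the early endosome GTPase, by 0.58, of which VPS41 and RAB5A lost their call under TPM rescaling.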

How the data were processed

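Per the labels' protocols, RNA was taken with Trizol and libraries were made with an Illumina TruSeq RNA kit. The authors deposited FPKM values, 1 table of 62709 genes with the authors' gene length and coordinates. CASAVA 2.19 is named in the submitters' processing notes, and aligner, counter, strand setting, genome build and annotation were not stated there or elsewhere in the labels. The table held 1 empty line and 6 columns that match no sample of the series, which were not used.

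Read numbers were recovered from FPKM times length, and 100% of values came out whole (tolerance 0.01 reads). The depth implied by FPKM was 1.027 to 1.049 times the recovered total in saline and 0.885 to 0.923 in YQSHJD. Of the gene identifiers, 58273 were in GENCODE 29.

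Genes at 1 FPKM or more in 3 of 6 libraries were tested on log2(FPKM + 1) with limma 3.58.1 in R 4.3.3 (trend, robust prior, two-sided, Benjamini-Hochberg at 0.05), all libraries in 1 fit without a replicate block. The pseudocount of 1 understates changes of low genes, and bare folds are ratios of mean FPKM. GC content came from the longest GENCODE 29 transcript and was known for 98.59% of tested genes. It was corrected with loess (span 0.5). A total of 19 alternatives were run, 2 of them (equal summed nuclear FPKM, and GC correction without YQSHJD 1) chosen after seeing the data. On simulated data the fit recovered 83.3% of 1.5-fold and 95.8% of 2-fold changes, with 8.6% of calls false. The simulation took its spread from the saline libraries alone, changed a small part of the genes and held no GC trend. Its rates need not hold for these data, where 41.4% of all genes were called.

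All 33 genes were named. Of the 3 other lists, the 3 largest called rises and falls were named. The members and lists were chosen with earlier results of these data known, so a pattern shown by earlier results is no independent support. Low levels and shares rest on reads counted without molecular identifiers.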

Additional observations from a re-analysis of the deposited data

How the results depend on the processing

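Of 600 values of the tested genes under 19 alternatives, 438 kept direction and side of the threshold and 58 changed sign with no call in either setting. A call was lost in 85, gained in the same direction in 16 and gained with the opposite sign in 3. Those 3 were CHMP1A, 0.18 with the GC correction, and CHMP7 at -0.31 and IST1 at -0.28 under TPM rescaling. Their values as deposited, -0.07, 0.005 and 0.07, were not called, and the cause was not tested. The number called higher, 9, was 3 without the filter, 1 under TPM rescaling and 2 with summed nuclear FPKM equal. It was 4 with GC correction and replicate block, and 4 with GC correction without YQSHJD 1. Of each of these 4, HGS was one and 3 were among the 9. The number called lower, 3, was 0 without the filter (3 at an unadjusted limma p under 0.05). It was 9 under TPM rescaling, 7 with summed nuclear FPKM equal and 1 with GC correction without YQSHJD 1. The median of the 32 tested genes, 0.07, became -0.25 under TPM rescaling and -0.11 with summed nuclear FPKM equal. Calls over all genes were 2957 without the filter and those over the 3 other lists 19, against 4536 and 30, where 26577 genes were tested. Leaving out each library gave 2805 to 4812 calls over all genes, 3 to 10 higher, 0 to 4 lower, 19 to 34 in the other lists and a median of 0.023 to 0.10. More genes were tested without the filter, and leaving out a library made a group smaller. The cause of these changes was not tested. Libraries with the same number share only that number: their deviations correlated at -0.24, -0.11 and -0.04, and no library correlated best with its own number. With the replicate block 3707 genes were called, of which 6 of the set were higher and 2 lower. Reads limit VPS28 (23 to 254) and CHMP4A (0 to 3).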
